A study of Mus musculus with 6 samples.

Results

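The semaphorin, plexin, neuropilin, Eph and ephrin genes are families of ligands and receptors that steer growing axons and migrating cells. Members were chosen by name, as every gene with a single platform symbol of the form Sema3 to Sema7, Plxn, Nrp1 or Nrp2, Epha, Ephb, Efna or Efnb, which gave 52 of the 18193 genes on the array. They comprise 20 semaphorins, 9 plexins, 2 neuropilins, 13 Eph receptors and 8 ephrins. The rule uses names alone, but these families were picked for description with earlier results of these data known.

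Expression was measured on 1-colour Affymetrix arrays in neuralized embryoid bodies, which are floating aggregates of mouse embryonic stem cells grown under conditions that favour neural fates. All 6 cultures came from 1 stem cell line in which the Rosa26 promoter drives a Gli1-FLAG transgene at all times, so both groups carry this hedgehog pathway transcription factor. After 2 days in suspension, all-trans retinoic acid was added to 3 of them at 500 nM for 3 days (RA). The other 3, grown in parallel with them as numbered pairs, were given the same dose together with Ag1.3 at 50 nM (RA_Ag1.3), which activates Smoothened, a membrane protein of the hedgehog pathway. The comparison asks how stimulation of the Shh pathway changes expression in these neural progenitors.

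Semaphorins are secreted or membrane-bound proteins, and plexins are their receptors. Class 3 semaphorins mostly act through a neuropilin, which binds the ligand, and a class A plexin, which signals. Eph receptors are receptor tyrosine kinases whose ligands, the ephrins, stay attached to the neighbouring cell, the A type by a lipid anchor and the B type by a membrane span. In the embryonic spinal cord these families guide motor and commissural axons and keep cell populations apart.

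Values below are probe set intensities on a linear scale, 1 probe set per gene, listed for replicates 1, 2 and 3 in that order. Fold changes are RA_Ag1.3 against RA on the log2(intensity + 16) scale, which understates the change of dim genes, with limma's moderated standard error (SE) and with p-values of limma's paired test adjusted by Benjamini-Hochberg over all 18193 genes. The threshold was an adjusted p under 0.05. Levels of different genes are not compared, because each probe set has its own response. Median intensities were 48.7 to 52.6 on the 6 arrays, with overlapping groups. The 18 intensities of control probe sets with no spike ran from 4.02 to 20.7, a range taken here as close to background. All 10 listed neural progenitor markers, among them Sox2, Pax6 and Nes, had means above it. So did all 8 mesoderm and mesenchyme markers and all 5 measured neural crest markers, so this bar does not single out a cell type. Pluripotency genes were also present, with summed intensities of 6 genes of 4648 to 7591 in RA and 2927 to 5876 in RA_Ag1.3.

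Sema3d, Sema3c and Sema6a rose with Ag1.3 and were the 3 of 52 guidance genes past the threshold, which is 5.77% beside 1.39% of all genes in either direction and 1.07% in the higher direction. Sema3d, a secreted class 3 semaphorin, was 4.51-fold higher. Sema3c, another secreted class 3 ligand known for guiding neural crest cells to the heart, was 1.66-fold higher, and Sema6a, a membrane-bound ligand of class A plexins that helps keep motor neuron cell bodies inside the spinal cord, was 1.74-fold higher. In the lower direction limma's test called 0 of 52, beside 0.313% of all genes, and 4 members were lower at an unadjusted p under 0.05, beside 7.68%. The median log2 fold change was 0.05 over the 52 genes and -0.01 over all genes, and 30 of the 52 values were above 0 against 48.0% of all genes.

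The 250 bases before the RefSeq start of Sema3d, Sema3c and Plxna2 (build GRCm38.p6, 5′ to 3′ on the gene's strand) are shown because the first of these is the member with the largest change, the second the other class 3 ligand past the threshold, and the third a plexin of the same receptor system. Plxna2 did not pass the threshold, and no window is shown for Sema6a, which did. Capitals mark CCACCC or its reverse complement GGGTGG, the letters at the core of the consensus site of Gli factors.
Sema3d, chr5:12382916-12383165, plus strand: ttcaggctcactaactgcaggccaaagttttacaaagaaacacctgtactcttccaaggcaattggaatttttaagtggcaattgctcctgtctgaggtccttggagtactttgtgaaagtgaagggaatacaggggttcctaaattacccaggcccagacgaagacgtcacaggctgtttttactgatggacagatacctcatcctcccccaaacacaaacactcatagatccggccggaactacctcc
Sema3c, chr5:17574566-17574815, plus strand: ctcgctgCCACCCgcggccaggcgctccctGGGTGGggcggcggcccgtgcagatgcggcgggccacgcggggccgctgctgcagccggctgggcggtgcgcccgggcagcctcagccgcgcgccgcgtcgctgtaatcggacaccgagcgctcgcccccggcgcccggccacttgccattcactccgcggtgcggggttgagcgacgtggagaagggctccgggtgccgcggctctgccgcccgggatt
Plxna2, chr1:194619579-194619828, plus strand: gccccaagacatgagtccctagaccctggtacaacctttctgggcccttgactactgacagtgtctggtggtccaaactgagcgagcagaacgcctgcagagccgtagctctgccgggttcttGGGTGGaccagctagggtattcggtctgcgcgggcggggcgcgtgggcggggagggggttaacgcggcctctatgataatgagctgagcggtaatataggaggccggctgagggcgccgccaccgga
The core letters occur in the Sema3c window at 2 places, whose first bases lie 243 and 220 bases before the start, and in the Plxna2 window at 1 place, 127 bases before it. No match was found in the Sema3d window. On either strand, CCACCC occurs in 28.1% of 32851 such windows of the mouse table and in 51.7% of the 60 windows of the 46 guidance genes listed there. A gene with several starts counts once per window in these shares, and the 2 sets were not matched for GC content. GC content was 46.8%, 78.4% and 62.8% in the Sema3d, Sema3c and Plxna2 windows. The E-box CAGATG, searched on both strands as CAGATG and CATCTG, occurs in 14.4% of all windows, in 8.33% of the guidance gene windows and, of the 3 shown, in that of Sema3c. There it shares no base with the capitals. A match is a run of letters, not a bound site.

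Among secreted class 3 semaphorins, 2 of 7 rose. Sema3d read 21.1, 25.9 and 25.1 in RA and 216, 156.5 and 130.5 in RA_Ag1.3. All 3 cultures with Ag1.3 lay above all without it, and the RA values were just above background. The group means were 24 ± 2.57 and 168 ± 43.7 (SD, n = 3 each), a log2 difference of 2.17 (SE 0.16) with adjusted p = 0.0104. Within pairs 1, 2 and 3 the difference was 2.64, 2.04 and 1.83 on the log2 scale. Sema3c read 58.9, 52.5 and 53.8 in RA and 119, 87.3 and 102 in RA_Ag1.3, again with no overlap, for means of 55.1 ± 3.35 and 103 ± 16 (SD, n = 3 each). Its log2 fold change in limma's test was 0.73 (SE 0.09, adjusted p = 0.0300). The second probe sets of these genes did not follow: that of Sema3d had means in the background range, at 9.97 ± 3.19 and 12.8 ± 5.81 (SD, n = 3 each), and that of Sema3c read 39.4 ± 8.72 and 43.8 ± 2.94, with log2 fold changes of 0.13 and 0.12.

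Sema3e, a class 3 ligand that can act on plexin D1 without a neuropilin, varied more between pairs than with treatment. It read 73.5, 156 and 255 in RA and 55.65, 80.5 and 208 in RA_Ag1.3. Each culture with Ag1.3 lay below its own partner while the groups overlapped, and both pair 3 arrays were above the other 4. The log2 fold change of -0.48 (SE 0.13) did not pass, with adjusted p = 0.184. Its other 3 probe sets gave -0.22, -0.37 and -0.15. The remaining class 3 members had log2 fold changes between -0.09 and 0.10. Sema3a, a repellent of motor and sensory axons, read 118, 106 and 119 in RA and 146, 113 and 104 in RA_Ag1.3, and the group means of Sema3f and Sema3g were in the background range.

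**Figure D1:**
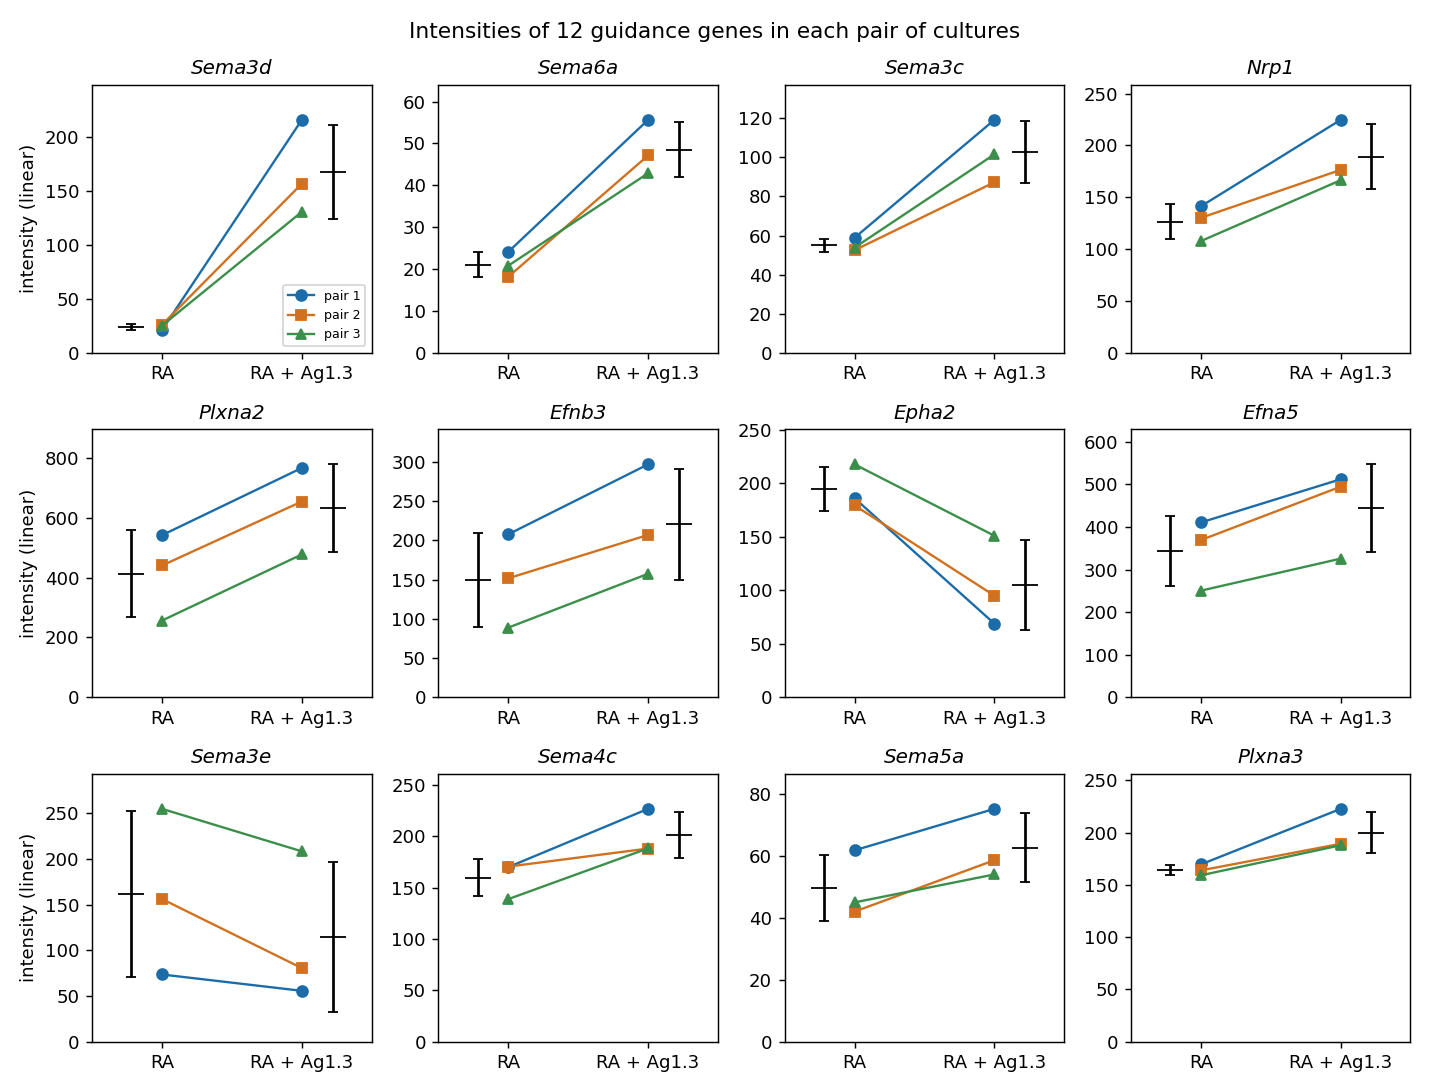
Linear intensity (vertical axes, from 0) of the 12 guidance genes with the smallest p in limma's paired test, in RA and in RA plus Ag1.3 cultures; coloured points joined by a line are the 2 cultures of a pair, and black bars are the group mean and SD (n = 3). The 3 Sema3d values with Ag1.3, 130.5 to 216, lie above those without it at 21.1 to 25.9, whereas the groups overlap for Plxna2 although every line goes up.

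Among membrane-bound semaphorins, 1 of 13 rose. Sema6a read 24.1, 18.1 and 20.8 in RA, around the upper end of the background range, and 55.6, 47.1 and 42.9 in RA_Ag1.3. The groups did not overlap, with means of 21.0 ± 2.99 and 48.5 ± 6.5 (SD, n = 3 each) and a log2 fold change of 0.80 (SE 0.08, adjusted p = 0.0207). Its other 2 probe sets had means in the background range and gave 0.14 and 0.08. Sema6b read 9.04, 6.32 and 10.5 in RA and 15.0, 12.6 and 10.6 in RA_Ag1.3, all within the background range, with adjusted p = 0.376. Sema6c and Sema6d had log2 fold changes of 0.05 and -0.13.

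Sema4c, a class 4 ligand of plexin B2, read 170.0, 170.5 and 139 in RA and 227, 188 and 188 in RA_Ag1.3. The groups did not overlap, but the log2 fold change of 0.30 (SE 0.09) did not pass, with adjusted p = 0.207. Sema4d, the ligand of plexin B1, read 219, 254 and 293 in RA and 193, 175 and 278 in RA_Ag1.3. It was lower in each pair, by -0.17, -0.50 and -0.07 on the log2 scale, with adjusted p = 0.369. Sema4g read 121, 139 and 128 in RA and 137, 140.1 and 149.5 in RA_Ag1.3 (adjusted p = 0.562 in limma's test). Sema4a was at 4.74, 10.4 and 16.9 in RA and 13.7, 8.65 and 20.5 in RA_Ag1.3, close to background throughout. Sema5a, which carries thrombospondin repeats outside the cell, read 61.7, 42.0 and 44.9 in RA and 75.1, 58.5 and 54.0 in RA_Ag1.3, higher in 3 of 3 pairs by 0.26 on average on the log2 scale (adjusted p = 0.211). Sema4b, Sema4f, Sema5b and Sema7a had log2 fold changes between -0.12 and 0.06. Second probe sets of Sema4b and Sema4f were lower in each pair, at -0.24 and -0.39. Their unadjusted p in limma's test was 0.0295 and 0.0373, with adjusted p of 0.361 and 0.391 over all probe sets.

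Receptors of the semaphorins had log2 fold changes above 0 in 9 of 11 cases (81.8%), beside 48.0% of all genes. Of the 11, 6 lay within 0.2 of 0, and 0 passed limma's threshold. An unadjusted p under 0.05 was found for 4 of the 11, all in the higher direction, beside 7.24% of all genes in that direction. Plxna2, a receptor for class 3 semaphorins and for Sema6a, read 542, 441 and 256 in RA and 767, 655 and 478 in RA_Ag1.3. Each culture with Ag1.3 was above its partner, while pair 3 was lower in both groups, so the groups overlapped at means of 413 ± 145 and 633 ± 146 (SD, n = 3 each). The log2 fold change was 0.63 (SE 0.10, adjusted p = 0.0586), and its other 3 probe sets gave 0.60, 0.50 and 0.91, each higher in 3 of 3 pairs. Nrp1, the neuropilin that binds Sema3a and also vascular endothelial growth factor, read 141, 130.1 and 108 in RA and 225, 176 and 166 in RA_Ag1.3, without overlap. Its log2 fold change was 0.52 (SE 0.08, adjusted p = 0.0586), with 0.49, 0.47 and 0.11 from its other probe sets.

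Nrp2, the neuropilin that binds Sema3f, read 81.6, 120.0 and 90.3 in RA and 116, 112 and 121 in RA_Ag1.3, with adjusted p = 0.454. Another probe set of Nrp2 read 57.6, 63.2 and 62.0 in RA and 131, 119 and 81.6 in RA_Ag1.3, with a log2 fold change of 0.70 and an unadjusted p of 0.00345 (adjusted p = 0.163 over all probe sets). Plxna3, a partner of Nrp2 for Sema3f, read 169.6, 163.9 and 159 in RA and 223, 189 and 188 in RA_Ag1.3. Plxna1 read 508, 538 and 508 in RA and 565, 629 and 605 in RA_Ag1.3. Neither gene's groups overlapped, at log2 fold changes of 0.26 (SE 0.08) and 0.20 (SE 0.07), and adjusted p was 0.223 and 0.292 in limma's test. Plxna4 stood at -0.01 with SE 0.11.

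Plxnb1, the receptor of Sema4d, read 227, 197 and 201 in RA and 231, 255 and 216 in RA_Ag1.3, with overlapping groups and adjusted p = 0.507. Plxnd1, the receptor of Sema3e, read 29.6, 27.8 and 28.2 in RA and 32.8, 28.9 and 43.2 in RA_Ag1.3 (adjusted p = 0.482). Plxnb2 and Plxnb3 had log2 fold changes of -0.01 and 0.10. Plxnc1, the receptor of Sema7a, gave 0.12 by the probe set used here, where the replicate 1 value of 182 in RA_Ag1.3 stood above the other 5 at 107 to 125. Of its other probe sets, 2 gave 0.44 and 0.42, higher in 3 of 3 pairs, with unadjusted p of 0.00771 and 0.00351 and adjusted p of 0.220 and 0.163 over all probe sets.

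**Figure D2:**
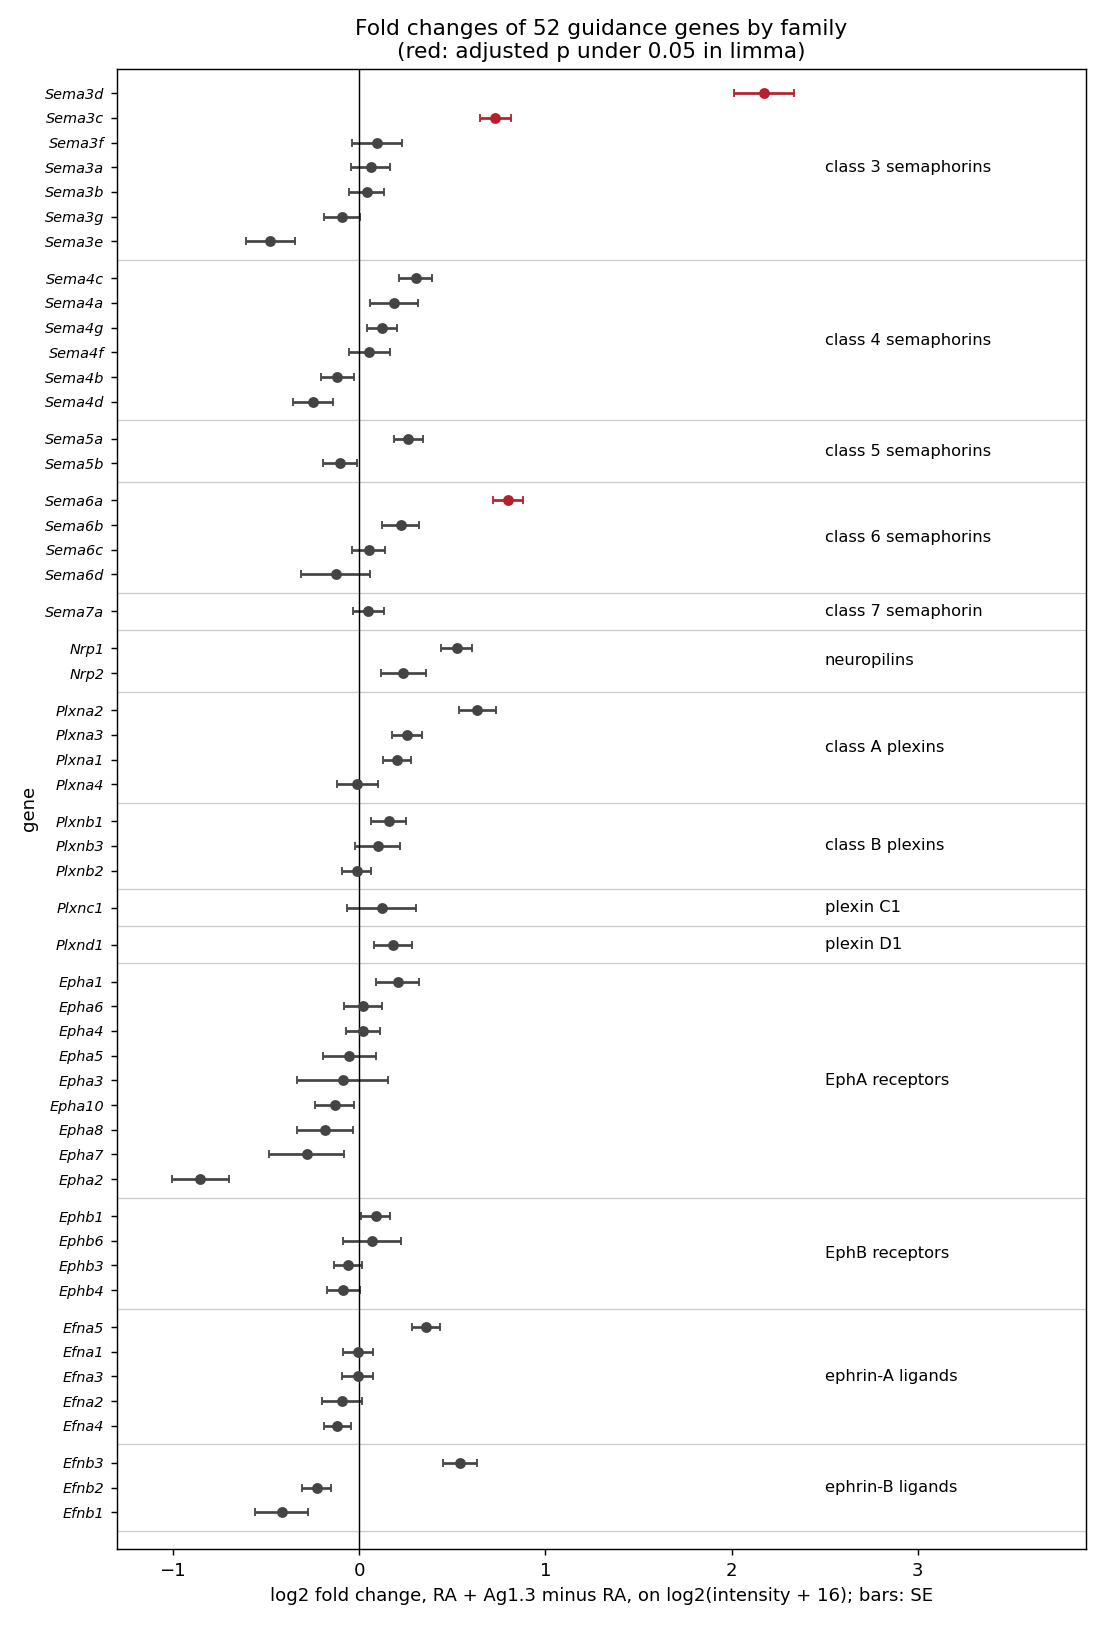
Log2 fold change of each of the 52 guidance genes (horizontal axis, RA plus Ag1.3 minus RA on log2(intensity + 16); bars are limma's SE), grouped by family, with genes past the threshold in red. The 3 red points are semaphorins at 0.73, 0.80 and 2.17, and the Eph receptor farthest from 0 is Epha2 at -0.85.

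Eph receptors showed values on both sides of 0, with 0 of 13 past limma's threshold and 1, in the lower direction, at an unadjusted p under 0.05, beside 7.68% of all genes. That one was Epha2, a receptor of early embryonic and epithelial cells, which read 186, 179 and 218 in RA and 68.7, 94.9 and 151 in RA_Ag1.3. The groups did not overlap, with means of 194 ± 20.5 and 105 ± 42.0 (SD, n = 3 each) and a log2 fold change of -0.85 (SE 0.15, adjusted p = 0.0774). Within pairs 1, 2 and 3 it was lower by -1.25, -0.82 and -0.49. Of 6 pluripotency genes limma's test called 1, Pou5f1, as lower, beside 0.313% of all genes. All 6 had values below 0, 5 of them at an unadjusted p under 0.05, at the summed intensities given above. The part of these cells in the Epha2 value was not tested.

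Epha3, a receptor of axial motor neurons and other cells, depended on which of its 4 probe sets was read, and was singled out after its values were seen. The probe set with the highest mean on the log2 scale read 61.1, 107 and 49.1 in RA and 69.4, 52.4 and 72.0 in RA_Ag1.3, at -0.09 on the log2 scale with SE 0.25 and adjusted p = 0.910. Another read 190.5, 159 and 61.4 in RA and 35.1, 41.6 and 18.0 in RA_Ag1.3, so that every culture with Ag1.3 was below every one without it, at -1.60 (SE 0.16). The third read 97.9, 79.5 and 39.2 in RA and 22.2, 29.5 and 11.1 in RA_Ag1.3, again without overlap, at -1.22. Tested among all probe sets in limma, these had adjusted p = 0.0328 and 0.0376, and the fourth gave -0.52 with adjusted p = 0.287. With the linear mean as the rule of choice, added after seeing the data, Epha3 would be represented by the second of these and 1 of 52 guidance genes would be lower. Dorsal and intermediate progenitor genes fell in 4 of 7 cases, with summed intensities of 1305 to 3195 in RA and 241 to 432 in RA_Ag1.3, and the part of those cells in the Epha3 values was not tested.

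Epha4, a receptor that steers limb motor axons dorsally, read 309, 248 and 133 in RA and 295, 233 and 156 in RA_Ag1.3. Pair 3 was lower in both groups, and the cultures of a pair were close, with a log2 fold change of 0.02 and SE 0.09. Its other 4 probe sets gave -0.14 to 0.10. Epha7 read 68.8, 52.9 and 31.5 in RA and 40.8, 29.4 and 43.9 in RA_Ag1.3, where pair 3 went the other way from pairs 1 and 2. Its other probe sets gave -0.18, 0.14 and -0.39. The last was lower in each pair, with an unadjusted p of 0.0146 in limma's test and adjusted p = 0.283 over all probe sets. Epha1 read 7.30, 15.6 and 14.9 in RA and 16.7, 14.9 and 18.6 in RA_Ag1.3, all near background, and Epha8 was near background as well. Epha5, Epha6 and Epha10 had log2 fold changes of -0.05, 0.02 and -0.13. Another probe set of Epha5 read 5.77, 11.2 and 11.8 in RA and 24.9, 21.0 and 25.6 in RA_Ag1.3, with an unadjusted p of 0.00178 and adjusted p = 0.124 over all probe sets. The 4 EphB receptors, Ephb1, Ephb3, Ephb4 and Ephb6, lay between -0.08 and 0.09.

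**Figure D3:**
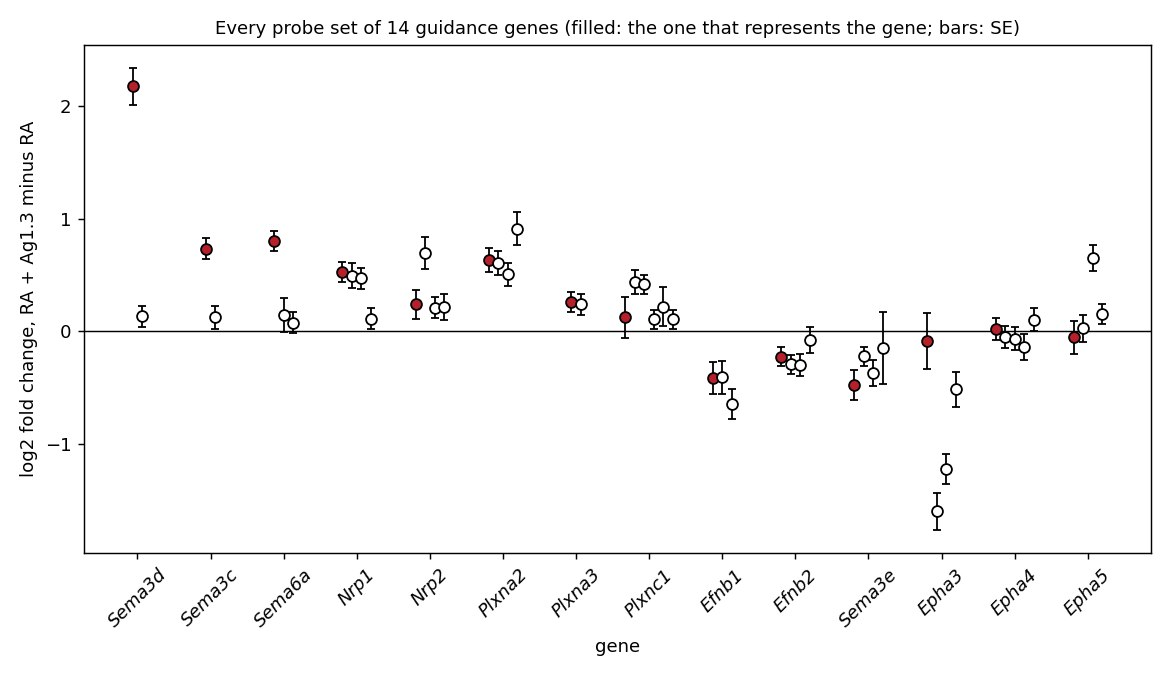
Log2 fold change (vertical axis, RA plus Ag1.3 minus RA; bars are SE) of every probe set of 14 guidance genes picked after their values were seen, with the probe set that represents the gene filled. The 4 Plxna2 probe sets lie together at 0.50 to 0.91, the filled Epha3 probe set is at -0.09 while its other 3 are at -1.60, -1.22 and -0.52, and the further probe sets of Sema3d, Sema3c and Sema6a are at 0.08 to 0.14.

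The ephrins had 0 of 8 members past limma's threshold and 4 at an unadjusted p under 0.05, 2 in each direction, beside 7.24% of all genes higher and 7.68% lower. Efnb3, a ligand of Epha4 that forms a barrier at the spinal cord midline, read 208, 152 and 88.8 in RA and 297, 207 and 157 in RA_Ag1.3. It was higher in each pair, at 0.54 on the log2 scale (SE 0.09, adjusted p = 0.0707), although pair 3 was the lowest in both groups and the groups overlapped. The other B ephrins read lower. Efnb1 read 369.8, 333 and 213 in RA and 238, 209.6 and 211 in RA_Ag1.3, at -0.42 on the log2 scale (adjusted p = 0.261). Its pair differences were -0.60, -0.63 and -0.02, so the value came from pairs 1 and 2, and its other probe sets gave -0.41 and -0.64.

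Efnb2, which marks arteries and is also made by neural cells, read 295, 250.5 and 252 in RA and 256, 222 and 198 in RA_Ag1.3, at -0.23 with adjusted p = 0.267. Efna5, which repels axons that carry EphA receptors, read 411, 369 and 250.3 in RA and 512, 495 and 326 in RA_Ag1.3. Its pair differences were close to each other, at 0.31, 0.41 and 0.36, with adjusted p = 0.105, though the groups overlapped, and its other probe set gave -0.16. Efna4 read 109, 97.3 and 115 in RA and 101, 87.2 and 105 in RA_Ag1.3, lower in each pair, with adjusted p = 0.537. Efna1, Efna2 and Efna3 had log2 fold changes between -0.09 and -0.01.

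Across the 52 genes, 15 (28.8%) had an unadjusted p under 0.05 beside 14.9% of all genes, and 9 (17.3%) had groups that did not overlap beside 11.8% of all genes. Of those 9, 8 were higher and 1, Epha2, was lower, beside 6.45% and 5.35% of all genes. The 8 include Sema6b, whose values all lay in the background range. All 3 pairs had the same sign for 23 members (44.2%), 16 higher and 7 lower, beside 36.7% of all genes, 17.2% higher and 19.5% lower. Log2 fold changes within 0.2 of 0 were found for 32 members (61.5%) and for 79.0% of all genes. Both group means were in the background range for 7 members, Sema3f, Sema3g, Sema4a, Sema6b, Epha1, Epha8 and Efna1, and these say little in either direction.

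**Figure D4:**
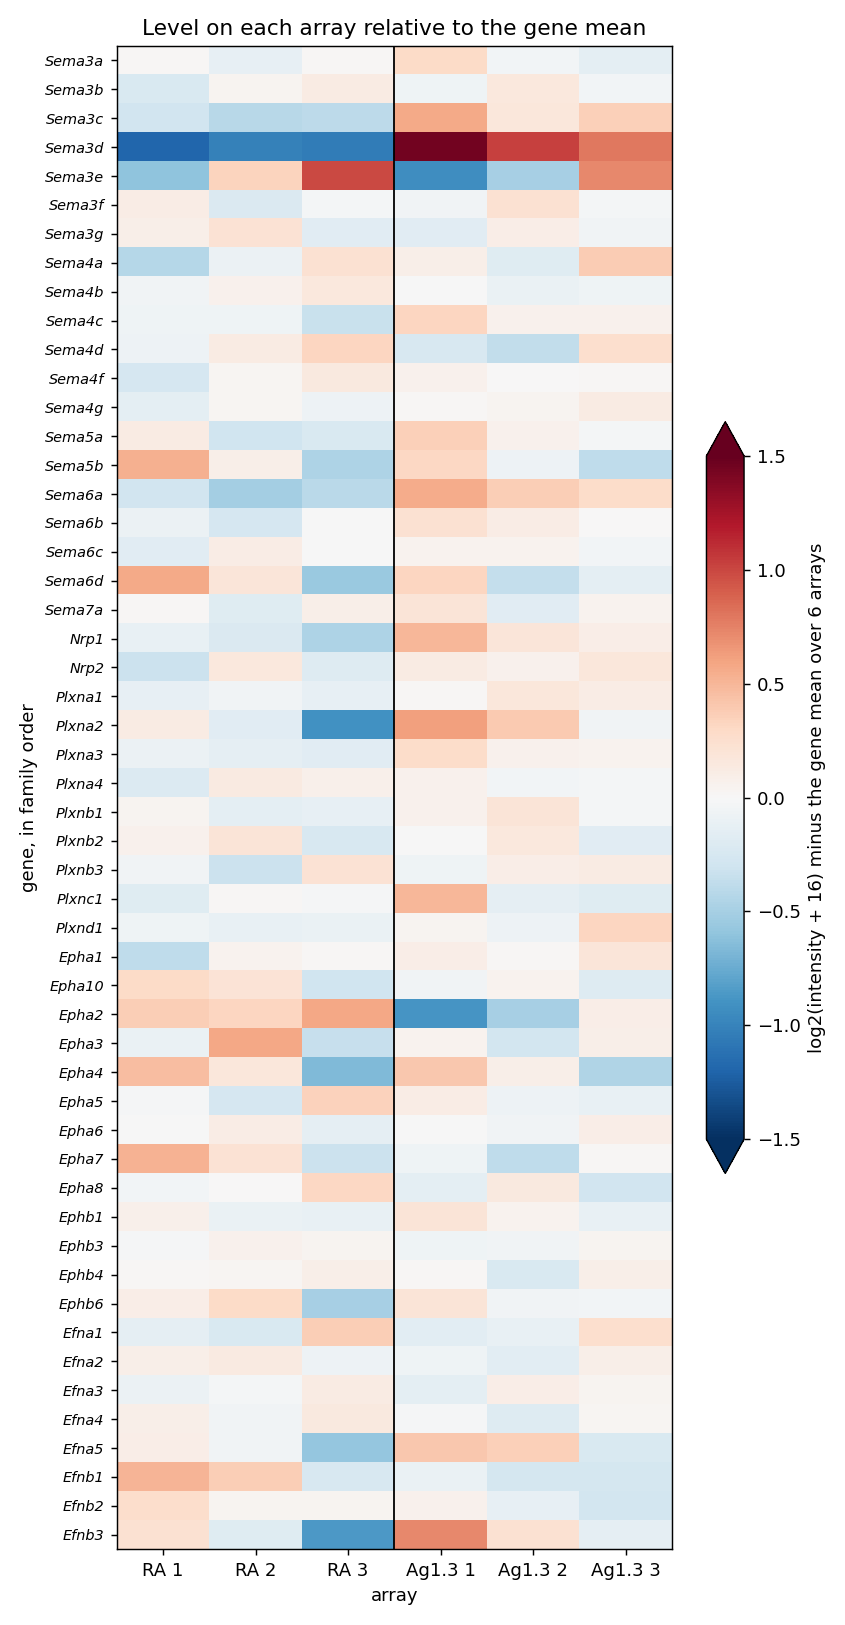
Level of each guidance gene (rows, in family order) on each of the 6 arrays (columns; RA left of the line, RA plus Ag1.3 right of it), as log2(intensity + 16) minus the gene's mean over the arrays. Sema3d changes colour at the line, whereas Sema3e and Epha4 change between pairs 1 and 3 on both sides of it.

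Proteins that work with these receptors inside or on the cell were read from a list of 51, of which 49 were measured, and 5 rose with Ag1.3 in limma's test, beside 1.07% of all genes. At an unadjusted p under 0.05, 13 were higher and 2 lower, beside 7.24% and 7.68% of all genes. Nrcam, an adhesion protein that associates with neuropilins, rose from 159 ± 32.3 to 357 ± 37.0 (SD, n = 3 each), with adjusted p = 0.0112. L1cam, which forms a complex with Nrp1 for Sema3a signalling, rose from 70.7 ± 2.94 to 179 ± 33.8 (adjusted p = 0.0159). Of the 5 collapsin response mediator proteins, which act below semaphorins on microtubules, Crmp1 and Dpysl5 rose by 1.25 and 0.59 on the log2 scale. The other 3 did not pass: Dpysl2 and Dpysl4 stood at 0.40 and 0.50 (adjusted p = 0.102 and 0.130), and Dpysl3 at -0.23, lower in 3 of 3 pairs (unadjusted p = 0.0311, adjusted p = 0.272). Chn1, a chimaerin that acts below Epha4, rose 1.44-fold with adjusted p = 0.0448. In the lower direction limma called 0, and the 2 at an unadjusted p under 0.05 were Dpysl3 and Vav3, while the median log2 fold change over the 49 was 0.02. Without pair 1, 2 or 3 the count of 5 became 0, 1 or 0, beside 0.214%, 0.192% and 0.341% of all genes. Without the replicate block the count became 2, beside 0.473% of all genes.

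Neuronal genes moved with these values: 9 of 12 listed neuron markers rose, with summed intensities of 2391 to 4279 in RA and 7144 to 10496 in RA_Ag1.3, and 4 of 8 motor neuron markers rose (288 to 376 against 1404 to 2221). Floor plate markers rose in 3 of 6 cases, with sums of 881 to 1055 and 1754 to 2785. In these whole embryoid bodies, fewer cells of a type and less RNA per cell cannot be told apart. The part of a change in neuron or floor plate content in the values of Sema3d, Sema3c, Sema6a and the partners was not tested. Of 5 neural crest markers limma's test called 0, with 0 at an unadjusted p under 0.05 and sums of 323 to 368 in RA and 320.4 to 372 in RA_Ag1.3. Endothelial cells also make Nrp1, Plxnd1 and Efnb2. Of 8 endothelial markers limma's test called 0, and 2 had an unadjusted p under 0.05, in opposite directions. Kdr read 61.6 ± 11.6 in RA and 98.5 ± 12.6 in RA_Ag1.3, without overlap, and Pecam1 read 41.7 ± 5.56 and 29.4 ± 10.9 (SD, n = 3 each). The means of Cldn5, Emcn and Tie1 were in the background range, and sums over the list were 252 to 315 in RA and 290.1 to 299.6 in RA_Ag1.3.

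The calls on Sema3d, Sema3c and Sema6a rest on few cultures. Without pair 1, 2 or 3, adjusted p was 0.0193, 0.0517 and 0.0501 for Sema3d, 0.180, 0.113 and 0.101 for Sema3c, and 0.139, 0.129 and 0.0728 for Sema6a. The spiked-in hybridization controls averaged 0.19 more in RA_Ag1.3 on the log2 scale. Scaling the arrays on them moved the median of all genes from -0.01 to -0.16. The split of guidance gene calls turned from 3 higher and 0 lower to 4 higher and 5 lower. Calls over all genes turned as well, from 1.39% of genes with 77.4% of the calls higher to 9.27% with 17.0% higher.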

How the data were processed

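The authors deposited 1 linear intensity per probe set and array for 6 Affymetrix arrays. Per the labels' protocols, a 3' IVT Express kit turned total RNA into biotinylated cRNA. How probes were summarised, background-corrected and scaled is not given in the sources consulted. On each array 1.67% to 1.74% of values equal 1, for a reason not given.

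Of 45037 probe sets other than controls, 34945 had 1 gene symbol in the platform annotation. Each of 18193 genes was read from its probe set with the highest mean log2(intensity + 16) over all arrays. On that scale, lmFit and eBayes of limma 3.58.1 (R 4.3.3) gave two-sided tests, with the replicate number as a block, as the series' design text describes paired parallel cultures. Deviations from the group means correlated across genes at 0.54, 0.19 and 0.56 for arrays of the same number and at -0.51 to 0.07 for others. Genes are not independent in these correlations. Deviations sum to 0 within a group, so values for the same number and for others are tied to each other. The p-values rest on the spread between 3 pairs of cultures of 1 cell line, and precision is limited by the number of arrays. In limma's moderated test each gene's variance is drawn toward a value shared by all genes. The SE and p of a gene are therefore not set by its own spread alone. Further probe sets were tested in a fit of all 45037. The script was tested on simulated data.

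Per-array values are given for members past the threshold with 1 sign in all pairs and then for those with the smallest unadjusted p, to 24 in all, plus Epha3, Epha4, Epha7, Sema3a and Sema5b and single probe sets of Epha5, Nrp2 and Plxnc1, added after their values were seen. The members and lists were chosen with earlier results of these data known. Alternatives were pseudocounts of 1 and 64, a filter at the median probe set, no block, a variance trend, quantile and spike scaling, other choices of probe set, and leaving out each pair. Promoter sequences come from a RefSeq table of GRCm38.p6, in which 46 of the 52 genes had an entry of full length; protein sequences were not used here.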

Additional observations from a re-analysis of the deposited data

How the results depend on the processing

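Of 52 guidance genes, 3 passed the threshold. The count was 0 with a pseudocount of 1 (0 higher, with 13 at an unadjusted p under 0.05 and 0 of all 18193 genes past the threshold), 8 with a pseudocount of 64 (7 higher and 1 lower), 8 above the median probe set (6 and 2), 8 with a variance trend (7 and 1) and 9 with spike scaling (4 and 5). Over all genes the share past the threshold was 1.39% in the main fit and 4.57% with a pseudocount of 64. It was 8.32% of the 11434 genes above the median probe set, 4.9% with the trend and 9.27% with spike scaling. Without 1 pair the count of guidance genes was 0 to 1, all higher, beside 0.192% to 0.341% of all genes in either direction. With the probe set chosen by linear mean, an alternative added after seeing the data, 4 passed and 1 of them was lower, beside 1.41% of all genes. Without the replicate block 2 passed, Sema3d and Sema6a, beside 0.473% of all genes, and Sema3c had adjusted p = 0.0722. The median log2 fold change was 0.01 to 0.09 without 1 pair and -0.10 with spike scaling. The 5 signalling partners became 0 with a pseudocount of 1, 9 with 64, 9 above the median probe set and 12 with the trend. They became 2 without the replicate block, 3 with all probe sets tested together, and 0 to 1 without a pair. The shares of all genes given above apply here as well, with 0.72% when all probe sets were tested together. Among the 24 named members, the direction of 3 turned in 1 alternative each. These were Epha1 with the mean of its probe sets (-0.0078), and Plxnb1 (-0.0197) and Sema4g (-0.0493) with spike scaling. Turns among the members not named were not counted. The cause of these shifts was not tested. With the mean of a gene's probe sets 2 guidance genes passed, Sema3d and Plxna2, beside 1.18% of all genes. With all probe sets tested together 2 passed, Sema3d and Sema6a, and Sema3c had adjusted p = 0.0542 in limma's test. Of 14 alternatives Sema3d passed in 11 and Sema3c in 7, and Sema6a passed in 8 of 13. Of the named members that did not pass in the main fit, Plxna2 passed in 5 of 14, and Nrp1 and Epha2 in 4 each. The others passed in 0 to 3. Of the 331 values of the 24 named members, 289 kept direction and side of the threshold. That total includes members that did not pass in the main fit and stayed so. The 15 values that lost a call were all those of Sema3d, Sema3c and Sema6a.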

Other observations

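The 52 members had 71 further probe sets over 36 genes, of which 47 had values on the same side of 0 as the one that represents the gene and 24 on the opposite side, 3 of the 24 at an unadjusted p under 0.05. Those 3 belonged to Sema3a, Sema4f and Epha5. For the 24 named members, most of them picked by smallest p, the split was 28 to 5, with 0 of the 5 at an unadjusted p under 0.05 in limma's fit. For the other members it was 19 to 19. For the 3 members past the threshold, Sema3d, Sema3c and Sema6a, the 4 further probe sets had the same sign and 0 of the 4 had an unadjusted p under 0.05 in limma's fit of all probe sets. Of the 71, the 2 past the threshold in that fit both belonged to Epha3.

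Pair 3 stood apart from pairs 1 and 2 for some guidance genes whatever the treatment, but no more often than for all genes. Both pair 3 arrays were below the other 4 for 6 members (11.5%), Efna5, Epha4, Epha10, Ephb1, Plxnb2 and Sema5b, beside 11.7% of all genes. Sema5b, a semaphorin with thrombospondin repeats, read 280.3, 202 and 133 in RA and 238, 179 and 142 in RA_Ag1.3. Both pair 3 arrays were above the others for 6 members (11.5%), Efna1, Ephb4, Plxnb3, Sema3e, Sema4a and Sema4d, beside 15.5% of all genes.

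Of the other cell types that embryoid bodies can hold, 8 endoderm markers included 1 that fell, with sums of 319 to 641 in RA and 307 to 538 in RA_Ag1.3. Of 8 mesoderm and mesenchyme markers limma's test called 0, with 1 at an unadjusted p under 0.05 and sums of 482 to 699.8 and 419.8 to 719.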
